A study of Mus musculus with 2 samples.

Results

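The let-7 family was followed through its guide strands, the mature arms that are loaded into Argonaute, together with the guide strand of the closely related miR-98. The 9 members, under their array names, were mmu-let-7a-5p, mmu-let-7b-5p, mmu-let-7c-5p, mmu-let-7d-5p, mmu-let-7e-5p, mmu-let-7f-5p, mmu-let-7g-5p, mmu-let-7i-5p and mmu-miR-98-5p; the species prefix is left off below. They were chosen by exact name among the 1881 mouse miRNAs on the array, with control spots and spots marked as population outliers left out, and all 9 names were present. The RNA came from exosomes, small membrane vesicles that cells release, in the supernatant of Lewis lung carcinoma (LLC) cells, an established mouse lung tumour line. Before collection the cells had been kept for 24 h in medium without serum and with cisplatin at 5 µM, which is a DNA-damaging platinum compound. Both samples form 1 group (n = 2), stem from separate experiments and carry the drug treatment, and each was read on a one-colour Agilent miRNA array of its own. No untreated group was analysed here, so the values describe what these exosomes held and how far the 2 arrays agreed, and no test between conditions or p-value was possible.

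let-7 was found as a regulator of developmental timing in the nematode Caenorhabditis elegans, and in mammals its guide strands rise as cells differentiate. Known targets include the mRNAs of Ras proteins, of the chromatin protein Hmga2, of Myc and of the RNA-binding protein Lin28, which in turn blocks the maturation of let-7 precursors. In lung tumours let-7 is known as a growth-restraining family, and its members are common in vesicles outside cells. Targets are recognised mainly through the seed, bases 2 to 8 of the guide strand.

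The mature sequences show how little separates the members that the array has to tell apart. They are RefSeq's for build GRCm38.p6, written 5′ to 3′ with the seed in capitals, and all 9 members matched.
let-7a-5p: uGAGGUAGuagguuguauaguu
let-7b-5p: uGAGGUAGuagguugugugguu
let-7c-5p: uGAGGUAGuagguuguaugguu
let-7d-5p: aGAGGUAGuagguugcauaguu
let-7e-5p: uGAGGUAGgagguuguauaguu
let-7f-5p: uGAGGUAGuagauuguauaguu
let-7g-5p: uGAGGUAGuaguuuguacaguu
let-7i-5p: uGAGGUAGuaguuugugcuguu
miR-98-5p: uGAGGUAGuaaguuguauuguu

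All 9 members had the same seed and a length of 22 bases, and differed only outside the seed. With let-7a-5p as the reference and positions counted from 1 at the 5′ end, let-7c-5p carried A19G, let-7e-5p U9G and let-7f-5p G12A, 1 change each. let-7b-5p carried A17G and A19G. let-7d-5p carried U1A and U16C, and let-7g-5p G12U and U18C. miR-98-5p differed by G11A and A19U. let-7i-5p stood farthest from let-7a-5p with 4 changes, G12U, A17G, U18C and A19U, but only 2 from let-7g-5p. The probe sequences were not used here, and whether a probe for one member also picked up another was not tested.

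The members come from 12 hairpins on 7 chromosomes, since let-7a, let-7c and let-7f are each made from more than 1 hairpin and a signal on the array cannot be assigned to one of them. Mirlet7a-1 (chr13:48538179-48538272), Mirlet7f-1 (chr13:48537829-48537917) and Mirlet7d (chr13:48536012-48536114) lie together, with 262 bases between the first pair and 1715 between Mirlet7f-1 and Mirlet7d. Mirlet7c-2 (chr15:85706603-85706697) and Mirlet7b (chr15:85707319-85707403) lie 622 bases apart within the span of the long non-coding RNA gene Lncppara. Mirlet7f-2 (chrX:151912346-151912428) and Mir98 (chrX:151913214-151913321) lie 786 bases apart within the span of Huwe1, a ubiquitin ligase gene. Mirlet7g (chr9:106178840-106178927) lies within the span of Wdr82, and Mirlet7e (chr17:17830352-17830444) within that of Spaca6. Mirlet7a-2 (chr9:41536716-41536811) lies within the span of the non-coding gene Mir100hg, Mirlet7c-1 (chr16:77599657-77599750) lies 657 bases from Mir99a, and Mirlet7i (chr10:122985640-122985724) has no other hairpin of these lists on its chromosome. Only gene spans were at hand, so exons and introns were not told apart.

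Signal was found for 8 of the 9 members on both arrays, the exception being miR-98-5p. A miRNA counted as detected where the listed total of at least 1 of its probes exceeded 3 times the listed error. Each array taken alone also gave 8 of the 9. Over all 1881 miRNAs the share was 16.6% for array 1, 10.7% for array 2 and 10.7% for both. Each member had 2 probes of 15 spots each. On array 1, 16 of the 18 probes passed, and on array 2, 13 of the 18 did. Both probes passed on both arrays for let-7a-5p, let-7b-5p, let-7c-5p, let-7e-5p and let-7i-5p, 5 of 9 members, against 6.17% of all miRNAs with every probe detected on both arrays. let-7d-5p, let-7f-5p and let-7g-5p rested on their brighter probe alone on array 2.

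**Figure D1:**
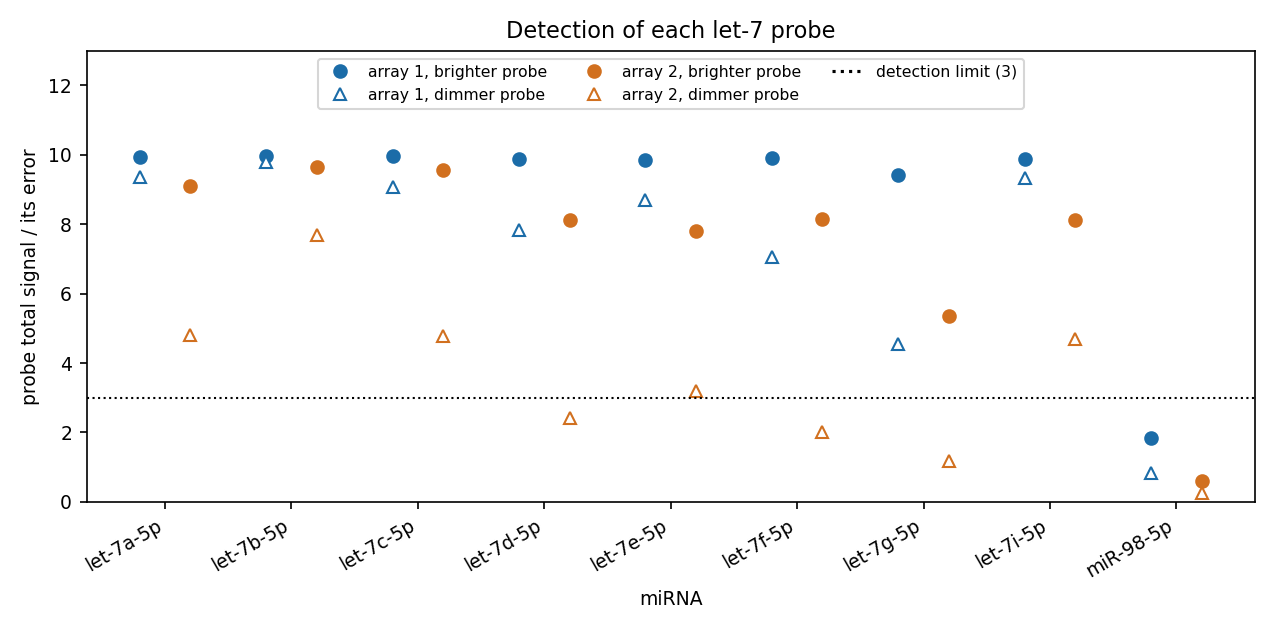
Total signal of each probe divided by its error (y axis, no unit) for the 9 miRNAs (x axis), with filled circles for the brighter probe, open triangles for the dimmer one, array 1 in blue and array 2 in orange. The dotted line is the detection limit of 3: on array 2 the dimmer probes of let-7d-5p, let-7f-5p and let-7g-5p lie under it at 2.41, 2.0 and 1.18, and miR-98-5p lies under it on both arrays.

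The brightest spots of the family belonged to let-7b-5p and let-7c-5p. The brighter let-7b-5p probe had a mean processed intensity of 389 ± 9.5 on array 1 (SD over 15 spots) and 108 ± 4.1 on array 2 (SD over 15 spots). The brighter let-7c-5p probe had 370 ± 9.3 on array 1 (14 spots) and 95.6 ± 4.7 on array 2 (15 spots), and that of let-7a-5p had 304 ± 12.7 (15 spots) and 64.4 ± 4.4 (14 spots). Here and below the processed intensity is the background-subtracted signal on a linear scale, without scaling between arrays. At the brighter probe of each of these members the array 1 spots lay far above the array 2 spots. For let-7b-5p the lowest array 1 spot of that probe was at 369 and its highest array 2 spot at 114.

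The remaining members gave the same picture at lower intensity. For let-7f-5p the brighter probe had 222 ± 9.0 on array 1 and 41.8 ± 6.6 on array 2, and for let-7d-5p it had 205 ± 13.3 and 41.0 ± 4.4. let-7i-5p had 191 ± 8.9 on array 1 and 41.0 ± 4.6 on array 2. let-7e-5p had 169 ± 8.3 on array 1 and 36.9 ± 5.2 on array 2. let-7g-5p, the dimmest of the detected members, had 80.9 ± 6.1 on array 1 and 18.6 ± 3.5 on array 2 (SD over 15 spots in all of these). Even there the lowest array 1 spot of that probe, at 73.2, was above every array 2 spot. Spots of a probe are technical readings of a single hybridisation, so their SD says nothing of the spread between experiments.

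miR-98-5p, whose hairpin lies near that of let-7f-2, had no probe near the limit. Its brighter probe had 5.3 ± 3.7 on array 1 and 1.8 ± 2.6 on array 2, and its dimmer probe 2.3 ± 2.6 on array 1 and 0.75 ± 3.62 on array 2 (SD over 15 spots). None of its spots was well above background on either array, 0 of 30 each, and its best total was 1.85 times its error on array 1 and 0.61 times on array 2. These intensities lie under the mean plus 3 SD of the 1000 negative-control spots, which was 7.55 on array 1 and 9.81 on array 2. No fold between the arrays is given for it, and at this precision it was not detectable, which is not the same as absent.

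**Figure D2:**
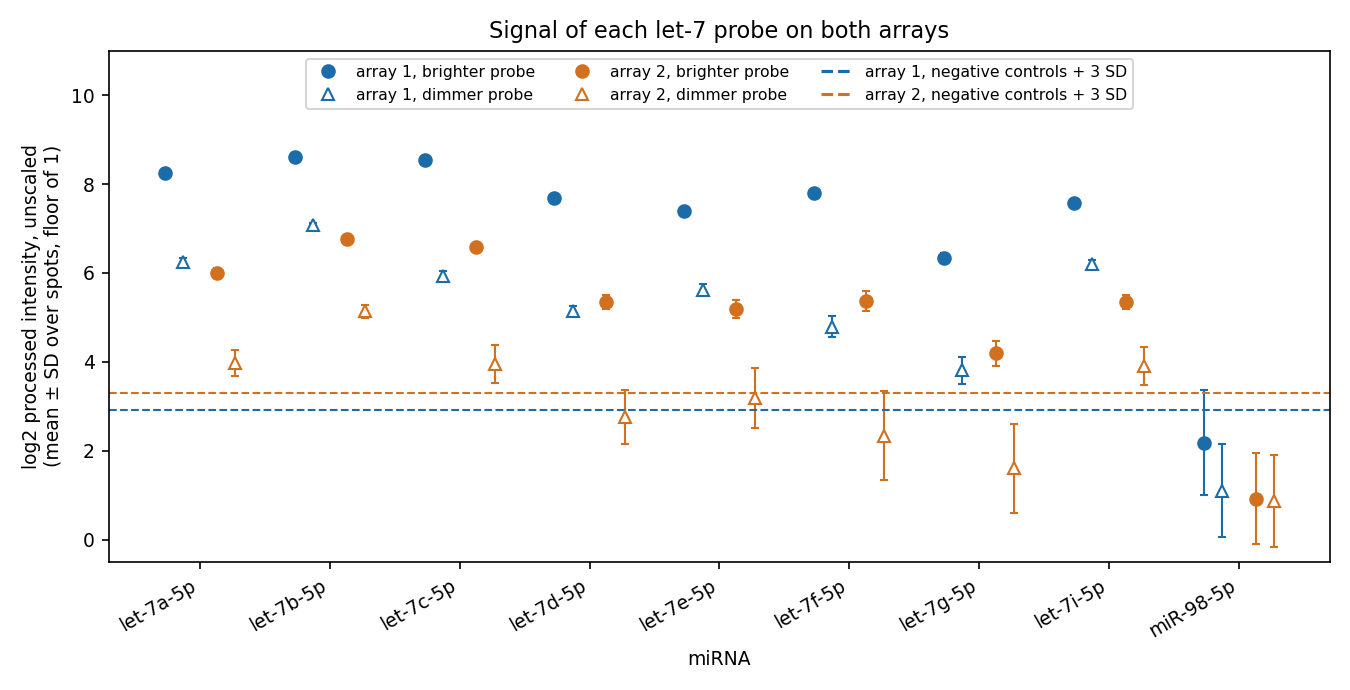
Mean log2 processed intensity of each probe, unscaled (y axis), with bars for the SD over its spots, for the 9 miRNAs (x axis), with array 1 in blue and array 2 in orange. Dashed lines mark the negative controls' mean plus 3 SD, at 2.92 for array 1 and 3.29 for array 2: every probe of the 8 detected members sits lower on array 2 than on array 1, and both probes of miR-98-5p sit below the lines on both arrays.

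After both arrays were brought to a common 75th percentile of the 201 miRNAs that passed on each, the members' mean log2 signals ran from 6.89 ± 0.13 to 3.98 ± 0.33 (SD, n = 2 arrays). let-7b-5p led with 6.89 ± 0.13. Next stood let-7c-5p at 6.25 ± 0.18, with 6.12 ± 0.38 for let-7a-5p and 5.76 ± 0.38 for let-7i-5p. Below these came 5.35 ± 0.43 for let-7e-5p, 5.23 ± 0.46 for let-7d-5p, 5.07 ± 0.52 for let-7f-5p and 3.98 ± 0.33 for let-7g-5p. These SDs mostly hold the shift between the arrays that the members share, so neighbours were set side by side within each array. let-7a-5p and let-7c-5p changed places, with 6.39 for let-7a-5p and 6.37 for let-7c-5p on array 1, and 5.85 for let-7a-5p and 6.12 for let-7c-5p on array 2. The order of the other members was the same on both arrays. The levels of let-7d-5p, let-7f-5p and let-7g-5p include a dimmer probe that was not detected on array 2. Brightness depends on the probe, so this is an order of signals and not of amounts. The median over the 8 was 5.55, and over the 201 detected miRNAs 4.10.

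Array 1 was the brighter for all 8 detected members, against 87.1% of the 201 detected miRNAs before scaling. Before scaling, array 1 was brighter by 2.44 log2 units for let-7f-5p, 2.36 for let-7d-5p, 2.32 for let-7e-5p, 2.26 for let-7a-5p, 2.25 for let-7i-5p and 2.18 for let-7g-5p. The smallest differences were those of let-7c-5p, at 1.97, and let-7b-5p, at 1.89. These differences spanned 0.55 log2 units, with an SD of 0.19 over the 8 members. They include let-7g-5p, whose array 2 level of 2.90, a mean of log2 values, lay under the log2 of the negative-control limit, 3.29. Its brighter probe, at 4.19, exceeded that value. By mean linear intensity over spots, all 8 members passed the limit on both arrays. As a fold of mean intensity at the brighter probe, array 1 over array 2 ran from 3.59 for let-7b-5p to 5.31 for let-7f-5p, and all 8 were over 2-fold brighter on array 1, against 42.3% of the 201 detected miRNAs. The number of vesicles and the RNA per vesicle cannot be told apart in such material, and whether either underlies these differences was not tested.

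Where both probes were detected on both arrays, in 5 members, they gave similar differences. On the log2 scale let-7a-5p differed by 2.24 at its brighter and 2.27 at its dimmer probe, let-7c-5p by 1.95 and 1.99, and let-7i-5p by 2.23 and 2.28. let-7b-5p differed by 1.84 at its brighter probe and 1.94 at its dimmer one. The widest gap between 2 probes among these 5 was 0.24, at let-7e-5p, with 2.21 and 2.44. Its dimmer probe, though detected on array 2, had a mean log2 signal of 3.19 there, under the log2 of the negative-control limit, 3.29. The mean linear intensity of that probe there, 9.87, was just over the linear limit of 9.81. For let-7d-5p, let-7f-5p and let-7g-5p only the brighter probe was detected on array 2, and it differed by 2.33, 2.42 and 2.15. For all 16 probes of the 8 members every array 1 spot was brighter than every array 2 spot. Over all probes of the 201 detected miRNAs this was so for 41.2%.

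Scaling removed 1.71 log2 units between the arrays. What was left for the members was a difference of 0.18 for let-7b-5p to 0.73 for let-7f-5p, with a median of 0.54, array 1 still being the brighter for all 8, although with another background correction (normexp) let-7g-5p turned to -0.15. Of the 201 detected miRNAs 24.9% were brighter on array 1 on this scale. None of the 8 members was over 2-fold apart on this scale, against 48.8% of the detected miRNAs, but this order turned with the scaling. With the 75th percentile over all miRNAs, 8 of 8 members were over 2-fold apart, against 34.8% of the detected miRNAs, and with quantile normalization 3 of 8 were, against 21.9%. How well the arrays agreed for the members relative to other miRNAs therefore depends on the scaling chosen. Of the 193 other detected miRNAs, 28 (14.5%) had an unscaled difference at least as large as the smallest among the members.

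**Figure D3:**
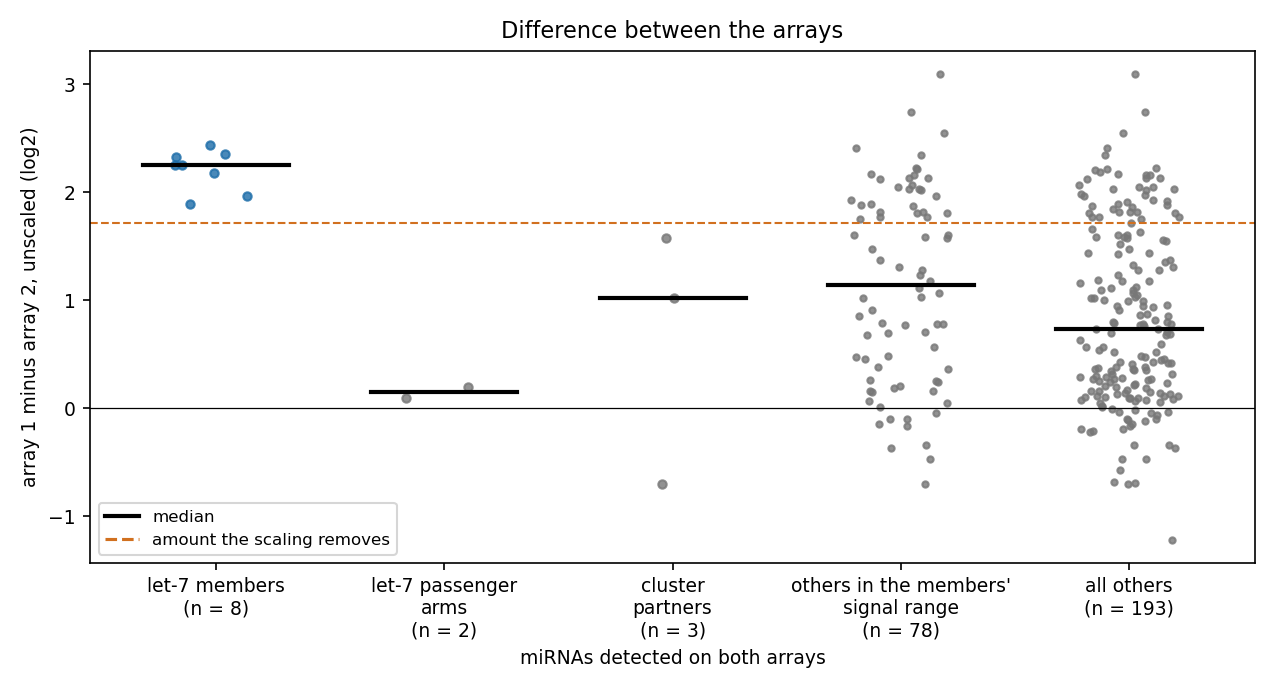
Difference between the arrays, array 1 minus array 2, in unscaled log2 signal (y axis), for miRNAs detected on both arrays (x axis, with the number in each set); each point is 1 miRNA and the black bar is the median of the set. The 8 let-7 members lie between 1.89 and 2.44, above the dashed line at 1.71 that marks what the scaling removes. The medians are 1.14 for other miRNAs in the members' signal range and 0.74 for all others. Drawn too are miRNAs whose mean log2 signals on array 2 do not exceed the log2 of the control limit. Among them are let-7g-5p, the passenger arms and miR-125a-5p.

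The median unscaled difference was 2.25 for the members and 0.74 for the 193 others, a gap of 1.52 that a common scaling factor leaves as it is. Among the 78 others whose mean signal lay within the members' range, the median was 1.14 and 20 (25.6%) reached the lowest member. The detected positive-control names that begin with dmr, 4 in number, differed between the arrays by 0.06 to 0.27 log2 units, array 1 being the brighter. The part that the RNA amount or the labelling had in these differences was not tested.

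The detected miRNAs with a pair of signals nearest to that of the family were sought outside it. Members, passenger arms, other names related by sequence and arms of neighbouring hairpins were left out beforehand. Unscaled, the family's median was 6.70 log2 units on array 1, against 4.41 log2 units on array 2. By Euclidean distance over these 2 arrays, miR-19b-3p was nearest at 0.14 log2 units, with 6.56 on array 1 and 4.43 on array 2. It was followed by miR-23a-3p at 0.16, miR-322-5p at 0.23, miR-34b-5p at 0.29 and miR-690 at 0.33. Their unscaled differences between the arrays were 2.13, 2.17, 1.97, 2.02 and 2.74. With 2 arrays this likeness rests on 2 values for each miRNA.

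The passenger arms, the opposite strands of the same hairpins, which are mostly discarded when the guide is loaded, gave little signal. Only 2 of the 11 that have probes passed on each array, let-7b-3p and let-7f-1-3p, a share of 18.2% beside the 10.7% of all miRNAs. Their hairpins are shown because both arms of each have a detected name on the array, although let-7f-5p can also come from Mirlet7f-2, with the 5p guide and the 3p passenger arm in capitals.
Mirlet7b (chr15:85707319-85707403, plus strand): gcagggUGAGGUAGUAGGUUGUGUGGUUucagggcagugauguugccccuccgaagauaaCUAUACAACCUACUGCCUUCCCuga
Mirlet7f-1 (chr13:48537829-48537917, minus strand): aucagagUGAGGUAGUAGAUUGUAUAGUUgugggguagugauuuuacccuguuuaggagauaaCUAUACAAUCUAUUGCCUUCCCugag

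Mean intensities of the 4 let-7b-3p probes lay between 10.4 and 12.0 on array 1 and between 6.91 and 11.4 on array 2. Those of let-7f-1-3p lay between 8.74 and 12.2 on array 1 and between 9.08 and 11.3 on array 2. The spot ranges of the arrays overlapped at all 8 probes. On array 2 their mean log2 signals, 3.23 for let-7b-3p and 3.29 for let-7f-1-3p, did not exceed the log2 of the negative-control limit, 3.29. A mean of log2 values runs lower than the log2 of a mean. By mean linear intensity over their spots, both arms passed the limit on each array. Their signals lay this near the limit, so no difference between the arrays is given for them.

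Both passenger arms were only just past detection. Their best totals were 3.93 and 3.99 times the error on array 1, for let-7b-3p and let-7f-1-3p in turn, and 3.63 and 3.59 times on array 2. Each had 30 spots per array, population outliers included, and few of them were well above background. These were 6 on array 1 and 5 on array 2 for let-7b-3p, and 6 on array 1 and 3 on array 2 for let-7f-1-3p. The negative-control limit was 7.55 on array 1 and 9.81 on array 2, so part of this signal lay within the range of control spots. The other 9 passenger arms, among them let-7a-1-3p, let-7d-3p and miR-98-3p, were detected on neither array.

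**Figure D4:**
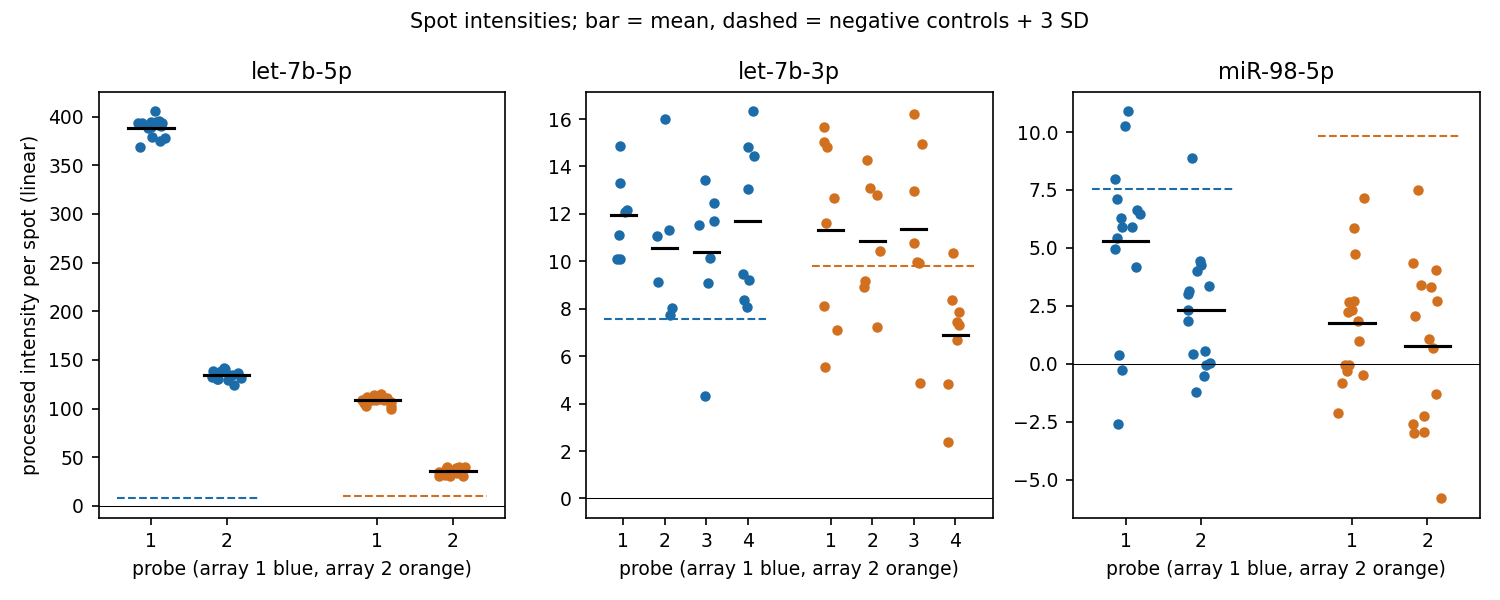
Processed intensity of single spots on a linear scale (y axis, different range in each panel) for the guide let-7b-5p, its passenger arm let-7b-3p and miR-98-5p, by probe (x axis), with array 1 in blue and array 2 in orange; bars are means and dashed lines the negative controls' mean plus 3 SD. For each let-7b-5p probe all array 1 spots lie above all array 2 spots, those of let-7b-3p overlap between the arrays, and nearly all of miR-98-5p lie below the dashed lines.

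Among other names related by sequence, 3 were on the array and 0 were detected. let-7k and miR-1961 have the same seed as the members, and let-7j has a changed last seed base.
let-7j: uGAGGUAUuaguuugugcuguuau
let-7k: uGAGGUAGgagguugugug
miR-1961: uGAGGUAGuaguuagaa

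let-7j differs from let-7i-5p over their first 22 bases only by G8U, and let-7k differs from let-7b-5p over 19 bases only by U9G. let-7j came closest to detection, with a best total of 2.86 times its error on array 1 and 1.19 times on array 2, just under the limit of 3. Its probes had mean intensities of 7.76 and 8.40 on array 1 and of 3.37 and 3.50 on array 2. let-7k reached 0.88 times its error on array 1 and 0.35 times on array 2. miR-1961 had mean intensities below 0 on both arrays.

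Several let-7 hairpins lie near hairpins of the miR-99/100 and miR-125 families, and of their 11 mature arms 3 were detected on both arrays, beside 10.7% of all miRNAs. For miR-125b-5p the unscaled values were 6.84 log2 units on array 1, against 5.27 on array 2, a difference of 1.58. miR-125a-3p differed by -0.70, being the brighter on array 2. After scaling miR-125b-5p was also the brighter on array 2, the scaled difference being -0.14. miR-125a-5p had 1 of its 2 probes detected on each array. Its array 2 level of 2.81, a mean of log2 values, lay under the log2 of the control limit, so no difference is given for it. By mean linear intensity over spots, 3 of the 11 arms passed that limit on both arrays. Detected on array 1 alone were miR-99a-5p, miR-99b-5p, miR-99b-3p and miR-100-5p, with best totals of 4.09, 7.36, 3.15 and 4.23 times the error. Mirlet7e lies 95 bases from Mir99b, and its guide was detected on both arrays while the guide of its neighbour, miR-99b-5p, fell short on array 2 with 2.13 times its error.

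Of 14 marker miRNAs of red cells, leukocytes, epithelium and endothelium, 0 were detected on both arrays, beside 10.7% of all miRNAs, and 1 on array 1, beside 16.6%, so these counts are near the background. That one, miR-142a-3p, a leukocyte marker, passed on array 1 alone with a total 6.89 times the error. The part of such cells in the let-7 signal was not tested.

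The scanner files also list a total for each whole miRNA, which departed from the sum of its own detected probes for 2 members on array 2. For let-7d-5p the listed total was 32.3, whereas its own detected probe gave 8.69. The rest equalled the listed total of let-7c-5p, 23.7, within 1%. For let-7g-5p the listed total was 12.8 and its own probe gave 3.93, the rest being the 8.86 listed for let-7f-5p. On array 1, and for the other 6 members on array 2, listed and own sums agreed within 1%.

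In the authors' deposited table of log2 values, all 8 detected members were above the table's lowest value of -3.32, and miR-98-5p was at that value on both arrays. In the authors' deposited table let-7b-5p had 5.81 on array 1 and 5.35 on array 2, and let-7d-5p had 4.74 and 3.50. Neither let-7j nor let-7k passed the detection limit, yet both were above the lowest value on array 2 in the authors' deposited table, with 0.12 and -0.85. Sorted, both columns of that table are identical, and how they were centred is unknown.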

How the data were processed

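Both arrays of the single group were one-colour Agilent mouse miRNA arrays, grouped by their labels and scanned together on 1 slide, per the file headers. The deposited scanner files hold linear processed intensities with spatial detrending on, per the file headers. The submitters' processing notes name Agilent Feature Extraction 10.7.1.1. The intensities were background-subtracted and not normalized between arrays, together with flags for each spot. A second deposited file, the authors' value table, is in log2 units; the sources used here do not give its normalization. That table served only as an alternative. The labels' protocols describe a cRNA labelling kit and the file headers a miRNA protocol; which was used is not settled.

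Spots marked as population outliers were not used: array 1 had 1069, 4 of them of members, and array 2 had 1152, 1 of them of a member. No spot was saturated. Spot intensities below a floor of 1 were raised to it, log2 values were averaged by probe, and probe means by miRNA. Scaling subtracted the 75th percentile of the 201 miRNAs that passed on each array (6.29 for array 1, 4.58 for array 2) and added back the mean of these percentiles. With 2 arrays in 1 group no test was made, and the number of arrays limits the precision. The 9 members, the lists of passenger arms, same-seed names, cluster partners and markers, and the rule for the 5 nearest miRNAs were chosen with earlier results of these data known. Members, list members detected on either array and the 5 nearest are named; a few undetected names are examples chosen after their values were seen. Sequences and gene spans are RefSeq's for GRCm38.p6. Alternatives to the detection rule, scaling, background correction, probe rule, floor and outlier spots were run, with normexp in R 4.3.3 with limma 3.58.1 and the rest in Python 3.11.15 with numpy 2.4.6 and pandas 2.3.3. The level calculation was tested on simulated data for 1881 names, in which a built-in shift of 1 log2 unit was recovered as a median of 0.999. That median was taken only over unchanged names whose simulated level on array 2 was above 4 log2 units. Lower signals, such as those of let-7f-5p (3.85) and let-7g-5p (2.90) on array 2, were not covered by it.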

Additional observations from a re-analysis of the deposited data

How the results depend on the processing

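No paired analysis was possible because there is 1 group. Of the 9 members, 8 were detected under every alternative run except 2: a majority of spots well above background left 5 (4.63% of all miRNAs pass that rule), and a total over 6 times its error left 7 (4.52% pass). The 2 passenger arms dropped to 0 under both of these rules. The cluster partners numbered 1 at 6 times the error and 7 when detection on at least 1 array sufficed. Leaving out 1 array gave 3 to 7 partners. Of the members' probes, 8 were detected on both arrays at 6 times the error, against 13 at 3 times. The median difference between the arrays of the 8 members was 2.25 without scaling and 1.91 with the percentile over all miRNAs. In these settings all 8 were over 2-fold apart, against 42.8% and 34.8% of the 201 detected miRNAs. That number was 3 after quantile normalization (21.9% of all), 1 with the sum of detected probes (40.3%) and 3 in the authors' value table (35.3%). The gap to the other detected miRNAs narrowed to 0.85 with normexp and an offset of 50, the cause of which was not tested, and stayed within 1.02 to 1.57 in the other settings. With normexp the difference of let-7g-5p reversed to -0.15; no other member's difference changed sign under the alternatives run. In 2 settings added after seeing the data, the gap was 1.11 against others in the members' signal range and 1.52 without passenger arms and partners. Levels of single members moved by more than their SD in 32 of 88 comparisons. All of these were with normexp, the brightest probe, the sum of detected probes or the value table, whose scales differ. Leaving out the scaling, using the percentile over all miRNAs or leaving out 1 array could not move a level that far, by construction. The share of 32 in 88 therefore does not measure how stable the levels are. On array 2 the dimmer probes of let-7d-5p, let-7e-5p, let-7f-5p and let-7g-5p lay under the log2 of the negative-control limit in mean log2 signal. This limits these members there. By mean linear intensity the let-7e-5p probe, at 9.87, was just over the limit of 9.81.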
